A study of Homo sapiens with 4 samples.

Results

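The mRNAs of 10 heat shock proteins and chaperones were examined in the RNA of extracellular vesicles (EVs) released by PC3 cells, an established human line grown from a prostate cancer metastasis in bone. The genes are HSPA8, HSPA1A, HSPA1B, HSPA5, HSP90AA1, HSP90AB1, HSP90B1, HSPB1, HSPD1 and HSPE1. They were chosen for what their proteins do, as chaperones of the cytosol, the endoplasmic reticulum (ER) and the mitochondria, and all 10 were found by Ensembl identifier among the 58051 genes of the total RNA tables, of which 19629 are protein-coding. The EVs came from PC3 cells for which no modification or treatment is given, were collected in medium with exosome-depleted serum, and were isolated with an affinity kit (exoEasy) and size-exclusion columns (qEV) per the methods, of which the labels name the columns only. Stranded total RNA libraries were made from 2 biological replicates. The study also made 2 small RNA libraries, which were not used here. There is 1 condition and 1 cell line, without RNA of the parent cells, so levels in EVs could not be set against levels in the cells.

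The values are the authors' raw numbers of reads counted per gene. In total, 489170 reads were counted on genes in replicate 1 and 475942 in replicate 2, and levels are given as CPM, the reads of a gene divided by this total and multiplied by 1000000. A single read equals 2.04 and 2.10 CPM, and the smallest level taken as measurable, 3 reads, is 6.13 and 6.30 CPM. The reads counted on genes were 2.50% of all reads in replicate 1 and 2.16% in replicate 2. A further 45.5% and 48.1% of all reads had been set aside because they aligned to more than 1 place. Another 36.3% and 35.4% fell on no annotated feature. Intervals given are 95% Wilson intervals of a single library and cover counting error only. They treat each read as independent, yet even counts were in excess, at 70.8% of the protein-coding counts above 0 in replicate 1 and 68.0% in replicate 2, and intervals on 0.5 of the reads were therefore also computed. As a check of the label, 6 epithelial and mesenchymal genes were looked up (KRT8, KRT18, KRT19, VIM, CDH1 and EPCAM). All 6 had reads in both replicates, 1232 and 1380 summed, against 21.9% of all protein-coding genes. KRT8 alone held 966 and 1088 of these reads, and EPCAM had 2 reads in replicate 1. The 4 androgen-responsive luminal genes and 6 blood and liver genes looked up had 0 reads, as had 11333 of the 19629 protein-coding genes. Of 3 vesicle membrane genes, CD63 and CD81 had reads in both replicates, and CD9 was at 0. In such bulk RNA, more vesicles that carry an mRNA and more copies per vesicle cannot be told apart.

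Chaperones bind other proteins that are unfolded or not yet assembled and keep them from aggregating. HSP70 proteins hold short exposed stretches through cycles of ATP binding and hydrolysis, with J-domain proteins as partners and exchange factors that release the nucleotide. HSP90 proteins act later, on kinases, receptors and other clients handed over with the help of co-chaperones. Small heat shock proteins such as HSPB1 bind without ATP, and the chaperonin HSPD1 with its lid HSPE1 encloses proteins in the mitochondrial matrix. Many of these genes are induced by heat through the transcription factor HSF1, and those of the ER by unfolded protein in that compartment. HSP70 and HSP90 proteins are also commonly found as proteins in EVs, whereas the counts here concern their mRNAs.

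The genes differ in how far their sequence can be told from that of others, which decides where a read can be counted. HSPA1A and HSPA1B encode the stress-inducible HSP70, and over their 1923 coding bases they differ at 4 positions (99.8% identical), numbered here from the first base of the start codon, with HSPA1A given first: G1710T, G1860C, C1905T and A1920G. The first 1709 coding bases are the same in both. The 30 bases around the first difference, from position 1695 to 1724, are shown with the differing base in capitals.
HSPA1A: ggacaagaagaaggtGctggacaagtgtca
HSPA1B: ggacaagaagaaggtTctggacaagtgtca
By the same alignment, the coding sequence of the constitutive HSPA8 is 74.1% identical to that of HSPA1A, and HSP90AB1 is 76.1% identical to HSP90AA1.

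The ends of the coding sequences differ between the cytosolic and the ER forms of HSP70 and HSP90. Those of HSPB1, HSPD1 and HSPE1 carry neither kind of end and are not shown. The last 30 coding bases before the stop codon are shown with the last 4 codons in capitals. In the cytosolic HSP70 and HSP90 proteins these codons encode the tail that is bound by co-chaperones with tetratricopeptide repeats, and in the ER proteins they encode the signal that returns a protein to the ER.
HSPA8, chr11:123057737-123057766, minus strand: tcctcagggcccaccattGAAGAGGTTGAT
HSPA1A, chr6:31817650-31817679, plus strand: gggtcaggccccaccattGAGGAGGTAGAT
HSP90AA1, chr14:102081715-102081744, minus strand: gacgacacatcacgcatgGAAGAAGTAGAC
HSP90AB1, chr6:44253566-44253595, plus strand: gaggatgcgtctcgcatgGAAGAAGTCGAT
HSPA5, chr9:125236595-125236624, minus strand: gaagaggatacagcagaaAAAGATGAGTTG
HSP90B1, chromosome 12, plus strand, across an exon junction: aaggaatctacagctgaaAAAGATGAATTG

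The promoters of the genes were searched for the binding motifs of the factors known to induce them, in RefSeq windows on GRCh38.p14 from 250 bases before to 50 bases after each start. The heat shock element bound by HSF1 was searched as GAANNTTCNNGAA, whose other strand is TTCNNGAANNTTC, and it was present in 0.490% of the 35116 windows of all genes and in the windows of 4 of the 10 chaperone genes. The ER stress element was searched as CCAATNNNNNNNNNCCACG on both strands, and it was present in 0.0769% of all windows and in those of 2 of the 10, the ER chaperone genes HSPA5 and HSP90B1. The elements nearest to the start are shown for 5 of these genes, 5′ to 3′ on the strand of the gene, with the match in capitals.
HSP90AA1, chr14:102087111-102087140, heat shock element 88 bases before the start: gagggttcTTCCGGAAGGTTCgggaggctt
HSP90AB1, chr6:44247823-44247852, heat shock element 112 bases before the start: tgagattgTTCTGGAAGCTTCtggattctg
HSPA8, chr11:123062170-123062199, heat shock element 55 bases before the start: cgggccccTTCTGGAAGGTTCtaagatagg
HSPA5, chr9:125241385-125241414, ER stress element 66 bases before the start: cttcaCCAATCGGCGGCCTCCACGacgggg
HSP90B1, chr12:103930316-103930345, ER stress element 89 bases before the start: gggtgCGTGGTGCGGCGCGATTGGtgggtt
The sixth gene with a match was HSPD1, where a pair of heat shock elements that overlap each other lies 245 and 240 bases before a start. HSPA1A, HSPA1B, HSPB1 and HSPE1 had no match to either motif. Only exact matches to the letters were counted, so elements that depart from them or lie outside the windows would be missed. These matches are descriptions of the letters, and binding was not measured.

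Of the 10 chaperone genes, 7 were identified, meaning that each replicate held 1 read or more, against 21.9% of all protein-coding genes. With at least 10 reads in both, there were 6, against 11.6% of all. HSPE1 had reads in replicate 1 only, and no read was counted on HSPA1A or HSPA1B in either replicate. Together the 10 genes held 464 reads in replicate 1, or 0.0949% of the gene counts (0.0866 to 0.104%), and 693 reads in replicate 2, or 0.146% (0.135 to 0.157%), a mean of 0.120% ± 0.0359 (SD, n = 2). Most of these reads fell on HSP90 genes, which took 76.8% ± 6.59 (SD, n = 2) of them, while the 4 HSP70 genes took 12.5% ± 3.09 (SD, n = 2). These shares are not corrected for length, and reads of HSPA1A and HSPA1B that fit more than 1 place were set aside. The median level of the 10 genes was 51.5 CPM and that of all protein-coding genes 0 CPM. By mean CPM the median chaperone gene stood above 91.8% of protein-coding genes, and per kilobase of exon above 87.0%.

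**Figure D1:**
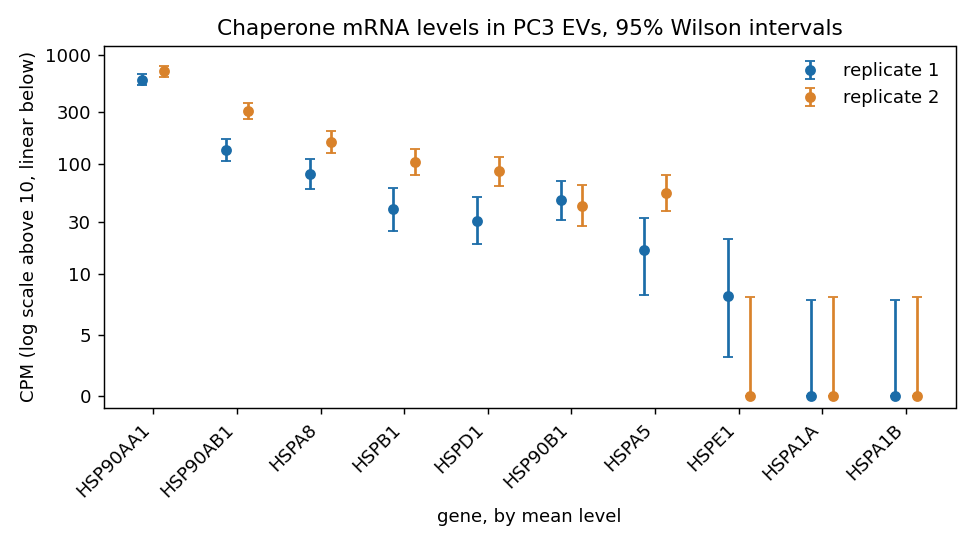
Level of each chaperone mRNA in CPM (axis logarithmic above 10 CPM and linear below) in the 2 replicates of PC3 EVs, with bars for the 95% Wilson interval of each library. HSP90AA1 has the highest CPM of the 10 genes in both replicates, and HSPA1A and HSPA1B lie at 0.

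The cytosolic HSP90 mRNAs held most of the reads of the 10 genes. HSP90AA1 (ENSG00000080824, chr14:102080742-102139699, minus strand), the stress-responsive form HSP90α, had 289 reads in replicate 1 and 334 in replicate 2. These are 591 CPM (527 to 663) and 702 CPM (630 to 781), a mean of 646 CPM ± 78.5 (SD, n = 2), and the intervals overlap. It ranked 52 among the 19629 protein-coding genes by mean CPM and 82 by mean CPM per kilobase of exon, and it alone carried 62.3% of the reads of the 10 genes in replicate 1 and 48.2% in replicate 2. HSP90AA1 shares 197 bases of exon with WDR20 on the opposite strand, on which 58 and 84 reads were counted, and as the strand setting of the counting is not given in the sources used here, the part of this overlap in the count was not tested.

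HSP90AB1 (ENSG00000096384, chr6:44246166-44253888, plus strand), the constitutive form HSP90β, had 66 and 146 reads, or 135 CPM (106 to 172) and 307 CPM (261 to 361), a mean of 221 CPM ± 122 (SD, n = 2). Its level was 2.27 times higher in replicate 2, and the intervals are apart. Per kilobase of exon it was lower than HSP90AA1 in both replicates, at 45.3 and 103 against 116 and 138 CPM per kilobase. No annotated gene overlaps its exons.

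The ER member of the family was lower per kilobase of exon than both cytosolic forms in each replicate, at 3.59 and 3.21 CPM per kilobase. HSP90B1 (ENSG00000166598, chr12:103930107-103953931, plus strand), which encodes GRP94, a chaperone of secreted and membrane proteins, had 23 and 20 reads, or 47.0 CPM (31.3 to 70.6) and 42.0 CPM (27.2 to 64.9). Its mean of 44.5 CPM ± 3.53 (SD, n = 2) had the smallest SD of the 7 genes with reads in both replicates. On the opposite strand, 805 bases of its exons lie against UQCC6 and 105 against TTC41P, and both of those had 0 reads. The microRNA gene MIR3652 on its own strand was not in the tables.

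Among the 4 HSP70 genes of the 10, the constitutive cytosolic form had the highest counted level per kilobase of exon in both replicates. It stood at 16.9 and 32.9 CPM per kilobase, and the counts of HSPA1A and HSPA1B have the limit given below. HSPA8 (ENSG00000109971, chr11:123057489-123063230, minus strand), which encodes HSC70, had 40 and 76 reads, or 81.8 CPM (60.1 to 111) and 160 CPM (128 to 200), a mean of 121 CPM ± 55.1 (SD, n = 2). Replicate 2 was 1.95 times higher, and the intervals are apart. The small nucleolar RNA genes SNORD14C and SNORD14D within its annotated exons had 0 reads, and the non-coding gene ENSG00000288061 on the opposite strand was not in the tables.

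HSPA5 (ENSG00000044574, chr9:125234853-125241382, minus strand), which encodes BiP, the HSP70 of the ER, had 8 and 26 reads. These are 16.4 CPM (8.29 to 32.3) and 54.6 CPM (37.3 to 80.0), a mean of 35.5 CPM ± 27.1 (SD, n = 2). It was 3.34 times higher in replicate 2 with intervals apart, the widest ratio between replicates among the 7 genes with reads in both. Per kilobase of exon, the ER pair changed order between the replicates, with HSP90B1 higher in replicate 1 (3.59 against 2.50) and HSPA5 higher in replicate 2 (8.37 against 3.21 CPM per kilobase). The size of these gaps depends on the length used. By the longest protein-coding transcript, the mean was 14.3 for HSP90B1 and 9.05 for HSPA5.

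No read was counted on the stress-inducible pair in either library. HSPA1A (ENSG00000204389, chr6:31815543-31817946, plus strand) and HSPA1B (ENSG00000204388, chr6:31827738-31830254, plus strand) had 0 of 489170 and 0 of 475942 reads. The smallest level taken as measurable, 3 reads, would be a share of 0.000613% and 0.000630%. The upper ends of the Wilson intervals are 7.85 and 8.07 CPM, and they concern counted reads only. Of the 75-base stretches of their exons, 73.6% in HSPA1A and 70.2% in HSPA1B occur in the other gene as well, and 0% are found at 1 locus when the alternate sequences of the genome are included. Reads from these stretches can be placed at more than 1 locus, and such reads were set aside. The non-coding gene ENSG00000285565, which shares 920 exon bases with HSPA1B on the same strand, was not in the tables. The counts of 0 therefore do not show that the transcripts were absent, and the part that this played was not tested.

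The small heat shock protein and the mitochondrial chaperonin both had reads in each replicate. HSPB1 (ENSG00000106211, chr7:76302673-76304295, plus strand), which encodes HSP27, had 19 and 50 reads, or 38.8 CPM (24.9 to 60.7) and 105 CPM (79.7 to 138), a mean of 71.9 CPM ± 46.8 (SD, n = 2). HSPD1 (ENSG00000144381, chr2:197486584-197516737, minus strand), which encodes HSP60, had 15 and 41 reads, or 30.7 CPM (18.6 to 50.6) and 86.1 CPM (63.5 to 117), a mean of 58.4 CPM ± 39.2 (SD, n = 2). Both were higher in replicate 2, HSPB1 by 2.70 times and HSPD1 by 2.81 times, with intervals apart.

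HSPE1 (ENSG00000115541, chr2:197500140-197503449, plus strand), which encodes HSP10 and lies head to head with HSPD1, had 4 reads in replicate 1 and 0 in replicate 2. The intervals are 3.18 to 21.0 CPM and 0 to 8.07 CPM and overlap, so a difference was not detectable at this depth. Per kilobase of exon, HSPE1 stood at 4.49 and 0 CPM per kilobase beside 4.02 and 11.3 for HSPD1. In replicate 1 these values rest on 4 reads against 15, so no order of the chaperonin and its lid is drawn from them. The genes share 135 bases of exon on opposite strands, and the part of this overlap in either count was not tested. Of the 557 exon bases of the main HSPE1 transcript, 192 also belong to the readthrough gene HSPE1-MOB4 on the same strand, including 168 of its 306 coding bases, and reads within an exon of both genes are ambiguous to a gene counter. HSPE1-MOB4 had 0 reads in both replicates, and 118736 and 150525 reads of all genes were set aside as ambiguous. How many of these came from HSPE1 was not tested.

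Levels were compared between genes per kilobase of annotated exon. The order was HSP90AA1, HSP90AB1, HSPB1, HSPA8, HSPD1, HSPA5, HSP90B1 and HSPE1, with HSPA1A and HSPA1B at 0. This length joins the exons of all annotated transcripts, so the levels depend on the annotation. It is 13092 bases for HSP90B1, whose longest protein-coding transcript has 3112, and 2980 for HSP90AB1, whose longest has 2674. HSP90AA1 had 127 CPM per kilobase ± 15.4 (SD, n = 2) and HSP90AB1 74.1 ± 40.8 (SD, n = 2), a difference of 52.7, which exceeds the larger SD and has the same sign in both replicates. HSPB1 followed with 44.3 CPM per kilobase ± 28.8 (SD, n = 2) and HSPA8 with 24.9 ± 11.4 (SD, n = 2), and neither differed from its neighbour above beyond the SD. The step from HSPA8 down to HSPD1, at 7.66 CPM per kilobase ± 5.14 (SD, n = 2), was 17.2 and exceeded the SD of 11.4. Below it, HSPA5 with 5.44, HSP90B1 with 3.40 and HSPE1 with 2.24 CPM per kilobase could not be ordered, as each neighbour differed by less than the larger SD. With the length of the longest protein-coding transcript, HSPB1 (88.6 CPM per kilobase) moved above HSP90AB1 (82.6) and HSP90B1 (14.3) above HSPA5 (9.05). By that length HSP90AA1 stayed highest at 184 CPM per kilobase, and HSPD1 stood at 23.0.

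**Figure D2:**
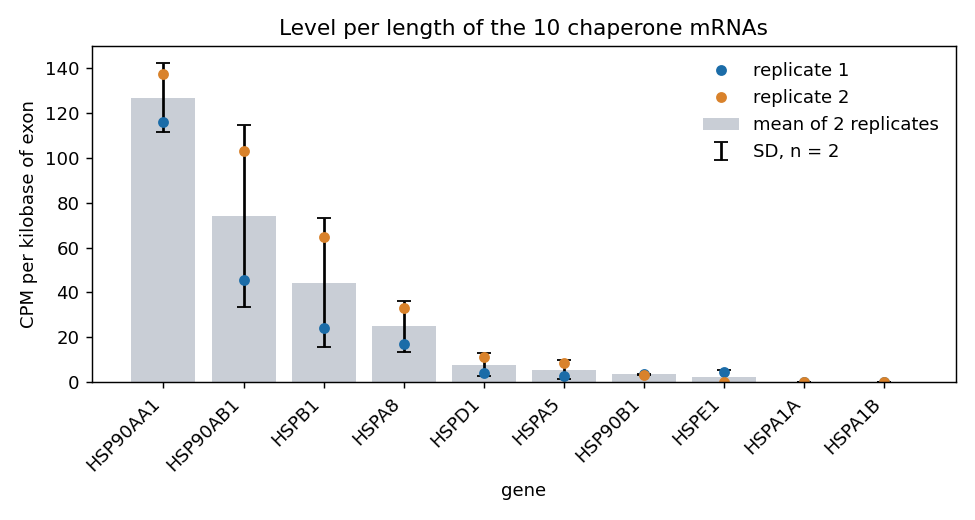
Level per length, in CPM per kilobase of annotated exon, of the 10 chaperone mRNAs, with grey bars for the mean, error bars for the SD and points for the 2 replicates. HSP90AA1 is highest at 127 CPM per kilobase, and the 6 genes from HSPD1 to the right are below 8 CPM per kilobase on average.

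The replicates were then compared gene by gene. The intervals of 5 genes were apart with replicate 2 above (HSP90AB1, HSPA8, HSPB1, HSPD1 and HSPA5), and those of 0 genes with replicate 1 above, among the 8 with a read. Over the 8296 protein-coding genes counted at least once, these shares were 22.9% and 21.1%. Of those genes 48.1% had reads in 1 replicate only, and shares among genes with counts like those of the chaperones were not computed. The log2 ratio of replicate 2 to replicate 1, on the log2(CPM + 1) scale, was 0.96 for HSPA8, 1.18 for HSP90AB1, 1.41 for HSPB1, 1.46 for HSPD1 and 1.68 for HSPA5, while it was 0.25 for HSP90AA1 and -0.16 for HSP90B1. Without HSP90AA1, the share of the other 9 genes was 0.0358% in replicate 1 and 0.0754% in replicate 2. When intervals were computed on 0.5 of the reads, 1 gene, HSP90AB1, had intervals apart, with 10.3% of protein-coding genes apart in the same direction. These are differences between 2 libraries of 1 condition, and no cause of them was tested.

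**Figure D3:**
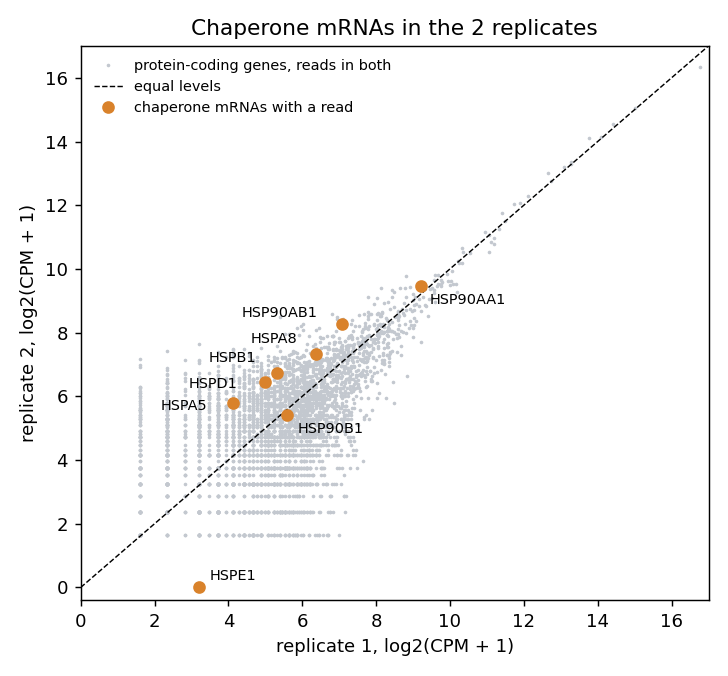
Level in replicate 2 against replicate 1, both as log2(CPM + 1), for the 8 chaperone mRNAs with a read (orange) and the 4305 protein-coding genes with reads in both replicates (grey), with a dashed line for equal levels. HSP90AB1, HSPA8, HSPB1, HSPD1 and HSPA5 lie above the line, HSP90AA1 and HSP90B1 lie near it, and HSPE1 has no read in replicate 2.

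To see how much of each gene can receive reads of its own, the 75-base stretches of the exons were looked up on both strands of GRCh38. The exons were those of all annotated transcripts together, which for HSP90B1 are 13092 bases against 3112 in the longest protein-coding transcript. Stretches across exon junctions were not included, so the shares need not hold for the spliced mRNA. Only exact copies were looked for, so reads that also fit a near copy could still have been set aside. Outside the HSPA1 pair, from 92.7% (HSP90AB1) to 99.7% (HSP90B1) of the stretches had no exact copy elsewhere on the primary chromosomes, although several of these genes have many processed copies. HSPA1A and HSPA1B stood at 26.4% and 29.8%. The order of the genes per length was the same when levels were divided by the stretches found at 1 locus, which come from the same exons. Of the pseudogenes named after the 10 genes, 17 belong to HSPA8, 18 to HSPD1 and 26 to HSPE1, and 0 of all 64 had a read in either replicate, against 3.23% of 10101 processed pseudogenes. Among 13 HSP90 pseudogenes, which carry another form of name and were added after the data were seen, HSP90AA2P had 2 reads in replicate 1 and 0 in replicate 2, and the others had 0.

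**Figure D4:**
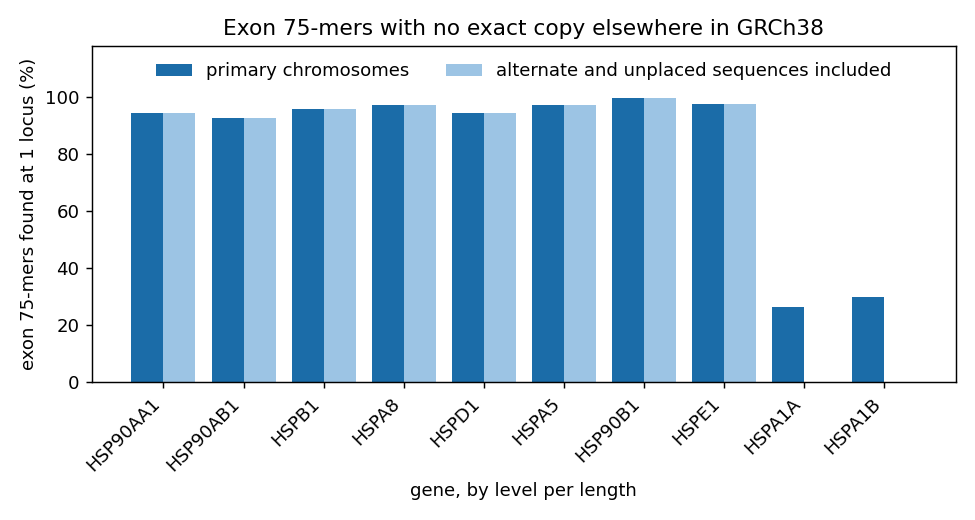
Percentage of the 75-base stretches of each gene's exons with no exact copy elsewhere in GRCh38, on the primary chromosomes (dark bars) and with alternate and unplaced sequences included (light bars). HSPA1A and HSPA1B reach 26.4% and 29.8% on the primary chromosomes and 0% with the alternates, and every other gene is above 92%.

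The partners of these chaperones were counted in the same way. Of 101 further chaperone genes in 10 lists, 51 (50.5%) had reads in both replicates, against 21.9% of all protein-coding genes. At least 10 reads in both were counted for 25 of them, against 11.6% of all. Among 12 other HSP70 family genes, 4 had reads in both replicates. The highest by mean CPM was HSPH1, which encodes the exchange factor HSP110, with 88 and 43 reads or 135 CPM ± 63.3 (SD, n = 2). HSPA9, the mitochondrial HSP70, had 7 and 24 reads, and HSPA2 had 10 and 22. Both HSPA6 and HSPA1L, other close relatives of the inducible pair, had 0 reads in either library.

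Of 23 J-domain genes, 10 had reads in both replicates. DNAJB1, the heat-inducible partner of cytosolic HSP70, had the most with 101 and 134 reads or 244 CPM ± 53.1 (SD, n = 2), ahead of DNAJB6 with 8 and 43 reads and DNAJC21 with 38 and 12. Of 10 exchange factor genes 5 had reads in both, led by BAG3 (14 and 26 reads), BAG5 (26 and 12) and BAG1 (13 and 22). Among 12 genes of HSP90 co-chaperones and the mitochondrial HSP90 TRAP1, 9 had reads in both. CDC37, which brings kinases to HSP90, had 242 and 144 reads or 399 CPM ± 136 (SD, n = 2). STUB1, a ubiquitin ligase that binds the tails of HSP70 and HSP90, had 114 and 80 reads, and STIP1, which bridges the pair through the same tails, had 76 and 111. Per kilobase of exon, CDC37 stood at 131 CPM per kilobase ± 44.7 (SD, n = 2), which differed from the 127 of HSP90AA1 by less than its SD, and STUB1 and STIP1 at 86.5 ± 19.8 and 42.2 ± 12.0 (SD, n = 2).

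The other lists differed in the share with reads in both replicates. Of 9 genes of TRiC, the cytosolic chaperonin that folds actin and tubulin, 6 had reads in both, with CCT3 (15 and 50 reads), TCP1 (6 and 48) and CCT5 (28 and 8) the highest by mean CPM. Of 6 genes of prefoldin, which hands proteins to TRiC, 2 had, PFDN2 with 26 and 29 reads and PFDN5 with 18 and 2. Of 12 ER folding genes 9 had, among them P4HB, a disulfide isomerase, with 106 and 65 reads or 177 CPM ± 56.7 (SD, n = 2), the lectin chaperone CALR with 80 and 78 reads or 164 CPM ± 0.243 (SD, n = 2), and PPIB with 10 and 44 reads. Of 5 mitochondrial quality control genes 4 had, led by the protease LONP1 with 130 and 187 reads or 329 CPM ± 89.9 (SD, n = 2), ahead of CLPP (40 and 8) and CLPB (28 and 4). Of the 8 other small heat shock protein genes, 0 had reads in both, and 1 of them, HSPB6, had 5 reads in replicate 2. Of 3 heat shock factor genes and the gene of their binding protein HSBP1, HSF1 had 32 and 44 reads and HSF4 5 and 38, while HSF2 and HSBP1 had 0.

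**Figure D5:**
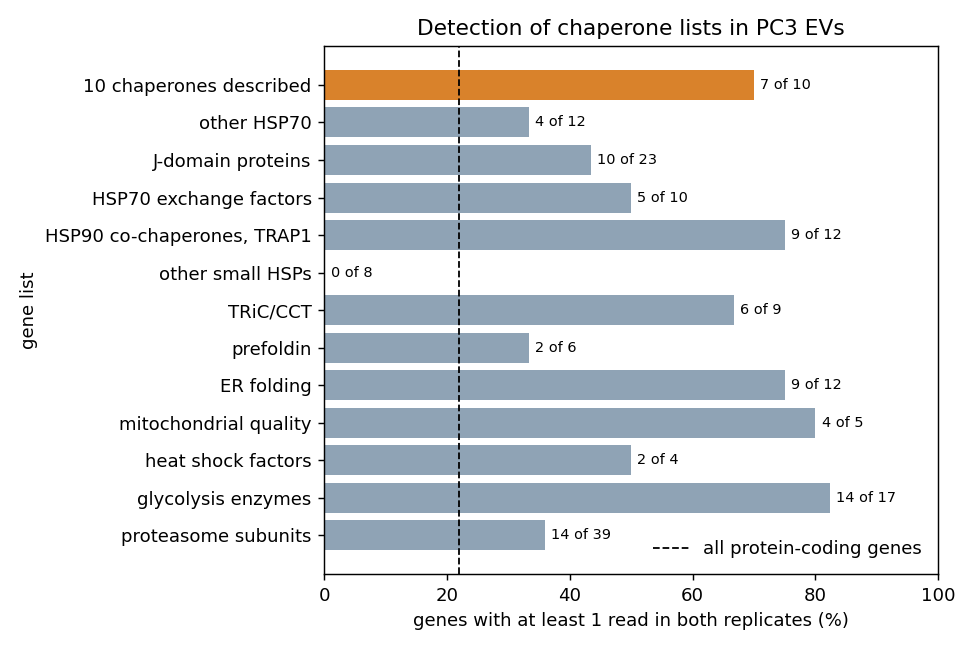
Percentage of the genes of each list with at least 1 read in both replicates, with the numbers beside the bars and a dashed line at 21.9% for all protein-coding genes. The 10 chaperones described (orange) reach 7 of 10, and the other small heat shock proteins 0 of 8.

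Other sets of housekeeping genes were counted beside the 10, where 21.9% of all protein-coding genes had reads in both replicates. Reads in both were found for 14 of 17 glycolysis enzyme genes, 14 of 39 proteasome subunit genes and 7 of the 10 chaperone genes. The median levels of the glycolysis and proteasome sets were 56.7 and 6.30 CPM, beside 51.5 CPM for the chaperone genes. GAPDH, the glycolytic gene with the most reads, had 512 and 372 reads or 382 CPM per kilobase ± 78.2 (SD, n = 2), and PSMD3, the proteasome gene with the most reads, had 131 and 112 reads or 50.8 CPM per kilobase ± 4.64 (SD, n = 2), beside 127 CPM per kilobase ± 15.4 (SD, n = 2) for HSP90AA1. As the sets were chosen with earlier results known, their shares are descriptions, and no test of the difference was made.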

How the data were processed

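Total RNA of PC3 EVs was sequenced from stranded libraries of 2 biological replicates. After adapter trimming and alignment to GRCh38, the authors deposited raw counts per Ensembl gene, with HTSeq named in the submitters' processing notes. The methods name Cutadapt, SHRiMP and SAMtools without saying which served the total RNA, and versions, strand setting and annotation release are not given in the sources used here. Replicate numbers come from the sample titles and the tables from the sample descriptions. The title of replicate 2 repeats the preparation name of replicate 1, whereas its description names another preparation. The methods state biological replicates, but if both came from 1 preparation, the SDs given would be technical. The 10 genes and all lists were chosen with earlier results of these data known.

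Counts were scaled to CPM on a library total of 1000000 gene reads. Symbols, types and exons came from GENCODE release 44 on GRCh38, which matched 56948 identifiers and left 1103 without a match. Identified means 1 read or more in each replicate. With 1 condition, no test between groups applies. Intervals were 95% Wilson, checked on simulated data with independent reads. As the intervals make that same assumption, the check does not cover the excess of even counts in the real data. Intervals were apart for 1898 protein-coding genes with replicate 2 above and 1750 with replicate 1 above, so the replicates are not 1 library deposited again. Exact copies of 75-base exon stretches were counted in the genome. Promoters came from RefSeq.

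The genes named are the 10, up to 3 of each list with the highest mean CPM among those identified, HSF1, genes that share exon with the 10 and their pseudogenes. Others were named after their values were seen. Alternatives were other count minimums, denominators, lengths and pseudocounts, TMM (edgeR 4.0.16) and DESeq2 1.42.0 size factors in R 4.3.3, and each replicate left out. Other steps used Python 3.11.15, pandas 2.3.3, numpy 2.4.6 and matplotlib 3.10.9.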

Additional observations from a re-analysis of the deposited data

How the results depend on the processing

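No paired analysis was possible because the total RNA covers 1 condition. Of the 10 chaperone genes, from 6 to 8 were identified under the other count minimums, and from 7 to 8 with each replicate left out. For the 101 genes of the other lists, the number moved from 51 to 25 with at least 10 reads in both replicates and to 77 with a read in either, and it was from 60 to 68 with each replicate left out. The summed share of the 10 genes was 0.205% of protein-coding counts and 0.324% without genes of the mitochondrial genome and RPS29, against 0.120% of all gene counts, as the denominator shrinks, and it was 0.0556% without HSP90AA1, a choice made after seeing the data. With each replicate left out it was from 0.0949% to 0.146%, and the median level from 34.8 to 70.4 CPM. The median percentile fell from 91.8 to 76.0 when genes without reads in both replicates were left out, and was from 86.3 to 93.5 with each replicate left out. With the longest protein-coding transcript as length, 6 of the 10 genes kept their place in the order. The number of genes with intervals apart fell from 5 to 1 with 0.5 of the reads, also chosen after seeing the data, as the intervals widen. TMM and DESeq2 scaling moved all 20 levels of single genes by less than their SD or not at all. All 30 log2 ratios under another pseudocount or TMM scaling kept their sign, or stayed at 0 for HSPA1A and HSPA1B. A pseudocount cannot change the sign of such a ratio. Only the TMM values of genes with reads in both replicates could therefore have changed sign. The depth limits any statement below 3 reads, 6.13 and 6.30 CPM.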

Other observations

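Reads in 1 replicate only were less frequent among the chaperone genes with a read than among all protein-coding genes with a read. Of the 8 chaperone genes with a read in the set described first, 1 (12.5%), HSPE1, had reads in 1 replicate only. These shares were not matched for level. Of the 77 genes of the other chaperone lists with a read in either replicate, 26 (33.8%) had reads in 1 replicate, 9 of them in replicate 1 and 17 in replicate 2, against 48.1% of the protein-coding genes with a read. The following genes were picked after their values were seen. TRAP1, the mitochondrial HSP90, had 54 reads in replicate 1 and 0 in replicate 2. AHSA1, which stimulates the ATPase of HSP90, had 97 and 7 reads, and CCT2, a subunit of TRiC, had 31 and 1. TCP1, another subunit, had 6 and 48, and ERO1A, an oxidase of the ER, had 2 and 40.

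Among the 10 chaperone genes, 4 of the 8 counts above 0 were even in replicate 1 and 6 of the 7 in replicate 2, beside 70.8% and 68.0% of the protein-coding counts above 0. The cause of the even counts was not tested.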
